A study of Mus musculus with 8 samples.

Results

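The genes of the collagen prolyl and lysyl hydroxylases were followed through cells of the mouse parietal bone. Members were chosen by symbol, 10 of the 31053 genes listed in every library: the lysyl hydroxylases Plod1, Plod2 and Plod3, the catalytic subunits of prolyl 4-hydroxylase P4ha1, P4ha2 and P4ha3, the prolyl 3-hydroxylases P3h1, P3h2 and P3h3, and Crtap. All 10 passed the filter on low counts in each of the 11 comparisons. Their messages were counted as unique molecular identifiers (UMIs) in single cells and added up over all cells of 1 class in 1 library. A level is given in counts per 1000000 UMIs of that class and library (CPM). The method reads the 3′ ends of messages, so no correction for length was made, and the efficiency of capture can differ between genes.

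The samples were droplet libraries from the parietal bone of mice of strain B6.129(FVB)-Col1a2tm1Mcbr/J, aged 4 to 5 days after birth. Wild type (WT) libraries S1, S2, S5 and S6 were compared with Het libraries S3, S4, S7 and S8, from mice with 1 copy of Col1a2 that encodes cysteine in place of a glycine of the triple helix, a model of osteogenesis imperfecta. Values by library are given in that order. S1 to S4 were made with kit version 3 and S5 to S8 with kit version 3.1, and the release of the counting software changed with the kit, so the effects of the kit and the software cannot be told apart. A library pools cells of several animals of 1 genotype, so it is the replicate, and differences between animals within a pool were not measured. The allele is a knock-in, so WT and Het mice differ in every cell type.

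Collagen chains are modified in the endoplasmic reticulum while they are still unfolded. Prolyl 4-hydroxylation of proline before glycine gives the triple helix its thermal stability, and the hydroxylation of lysine provides sites for sugars and for the crosslinks of mature bone collagen. The prolyl 3-hydroxylase complex of P3h1, Crtap and cyclophilin B modifies a single conserved proline of type I collagen, and loss of its parts gives recessive osteogenesis imperfecta. All of these hydroxylases use iron, 2-oxoglutarate, oxygen and ascorbate, and several of their genes are known targets of hypoxia-inducible factor (HIF).

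Plod1 (ENSMUSG00000019055, chr4:147909753-147936767, minus strand) encodes the lysyl hydroxylase known mainly for lysines of the triple helix. Plod2 (ENSMUSG00000032374, chr9:92542223-92608428, plus strand) encodes the one known for the telopeptides, where crosslinks form. Plod3 (ENSMUSG00000004846, chr5:136987019-136996648, plus strand) encodes the member of the family that also transfers sugars to hydroxylysine. P4ha1 (ENSMUSG00000019916, chr10:59323296-59373304, plus strand), P4ha2 (ENSMUSG00000018906, chr11:54100095-54131665, plus strand) and P4ha3 (ENSMUSG00000051048, chr7:100285520-100319699, plus strand) encode alternative α subunits that join protein disulfide isomerase, the product of P4hb, in the active enzyme. P3h1 (ENSMUSG00000028641, chr4:119232915-119248975, plus strand) encodes the prolyl 3-hydroxylase of fibrillar collagens, and P3h2 (ENSMUSG00000038168, chr16:25959288-26105784, minus strand) one known for basement membrane collagen. P3h3 (ENSMUSG00000023191, chr6:124841089-124857752, minus strand) encodes a relative that acts with lysyl hydroxylase 1, and Crtap (ENSMUSG00000032431, chr9:114375134-114390675, minus strand) a helper protein with no hydroxylase activity of its own. Coordinates are those of GENCODE release M21 for build GRCm38. Plod3 overlaps Znhit1 at its first bases, and P3h2 overlaps Gm4524, an antisense gene with 32 UMIs in all libraries, both on the opposite strand. Only a read taken for the wrong strand could be assigned to the other gene of such a pair, and this was not measured.

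Cells were kept where 500 genes or more were detected and mitochondrial genes took under 10% of UMIs. The libraries then held 46420 cells, 3405 to 11368 each, and 27648058 to 76068243 UMIs each. A cell was taken as an osteoblast (OB) if it held 10 or more Col1a1 UMIs and if 2 or all 3 of Runx2, Sp7 and Ibsp had 2 or more UMIs, which gave 2671 cells, 133 to 821 per library. They were divided by the share of Col1a1 in the UMIs of the cell into 379 early OBs (eOBs, under 0.75%), 1217 differentiating OBs (dOBs, 0.75 to 3.5%) and 1075 mature OBs (mOBs, over 3.5%). Of the remaining cells, 15370 had Col2a1 above 1% of UMIs (Col2a1 cells), and 28379 formed the class of other cells. The listed osteoblast markers made up 1.27 to 4.73% of UMIs in mOBs, and the listed chondrocyte markers 2.94 to 4.39% in Col2a1 cells. In kit version 3.1, eOBs held more chondrocyte marker UMIs (0.654 to 1.67%) than in kit version 3 (0.0137 to 0.208%). In WT libraries S1 and S2, haematopoietic-like cells were 56.3 and 48.1% of other cells, against 8.16 to 14.3% elsewhere. Col2a1 cells of S5 had a median of 1051 UMIs per cell. Any pair of libraries shared at most 0.558% of the cell barcodes of the smaller one.

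Promoter sequence is shown for the 4 genes with the largest rise between eOBs and mOBs, and for P4ha3, which had a different course. The windows are the 250 bases before the RefSeq start of transcription, in GRCm38.p6, read 5′ to 3′ on the strand of the gene. Capitals mark the core of the HIF response element, searched as ACGTG and GCGTG on both strands, so that a match on the other strand reads CACGT or CACGC.
P4ha1 (chr10:59323046-59323295, plus strand): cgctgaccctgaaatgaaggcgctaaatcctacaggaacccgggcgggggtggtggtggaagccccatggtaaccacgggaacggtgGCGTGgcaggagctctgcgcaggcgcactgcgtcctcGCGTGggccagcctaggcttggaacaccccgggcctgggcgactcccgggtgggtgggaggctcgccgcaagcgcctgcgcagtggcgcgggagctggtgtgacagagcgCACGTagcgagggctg
P4ha2 (chr11:54100674-54100923, plus strand): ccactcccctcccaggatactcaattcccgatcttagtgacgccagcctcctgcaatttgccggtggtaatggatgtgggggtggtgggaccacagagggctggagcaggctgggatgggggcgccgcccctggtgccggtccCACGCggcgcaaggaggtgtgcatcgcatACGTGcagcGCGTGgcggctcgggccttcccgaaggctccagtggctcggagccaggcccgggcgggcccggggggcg
P3h1 (chr4:119232665-119232914, plus strand): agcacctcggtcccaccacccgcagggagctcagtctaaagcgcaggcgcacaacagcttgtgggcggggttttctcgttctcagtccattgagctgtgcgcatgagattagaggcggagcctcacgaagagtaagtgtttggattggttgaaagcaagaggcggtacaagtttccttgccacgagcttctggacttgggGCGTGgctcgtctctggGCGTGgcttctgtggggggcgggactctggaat
Crtap (chr9:114390713-114390962, minus strand): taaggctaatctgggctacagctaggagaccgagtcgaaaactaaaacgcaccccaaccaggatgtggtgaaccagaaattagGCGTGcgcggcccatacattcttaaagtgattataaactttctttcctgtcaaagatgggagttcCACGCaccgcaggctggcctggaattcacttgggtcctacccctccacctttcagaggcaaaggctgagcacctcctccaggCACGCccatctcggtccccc
P4ha3 (chr7:100285270-100285519, plus strand): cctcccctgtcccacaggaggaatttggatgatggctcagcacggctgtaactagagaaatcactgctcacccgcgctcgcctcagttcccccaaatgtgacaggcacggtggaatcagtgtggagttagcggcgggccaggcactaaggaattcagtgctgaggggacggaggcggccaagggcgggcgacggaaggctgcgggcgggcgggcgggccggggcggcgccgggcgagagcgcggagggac
The core occurs 3 times in the P4ha1 window, 3 times in that of P4ha2, 2 times in that of P3h1, 3 times in that of Crtap and not in that of P4ha3. The table of promoters held 9 windows of 8 of the genes, since P3h1 has 2 starts, and 7 of the 9 held the core, against 38.6% of 32851 windows of all genes. GC content, 53.6 to 70% in the printed windows, was not matched in that share. Of the windows not printed, that of Plod3 held 4 matches, the other P3h1 window 2, that of Plod1 1 and that of P3h3 none. The number of matches thus did not follow the size of the rise. A match describes the letters of this window and does not show that HIF binds there. The P4ha2 window lies within the annotated gene, downstream of another annotated start.

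Transcripts of the 10 genes together were more abundant in mOBs than in eOBs of the same library in 8 of 8 libraries. Their sum ran from 1185 to 1811 CPM in mOBs and from 505 to 1240 in eOBs. In the median library 1 gene of each family supplied most of its messages in mOBs. P4ha1 made up 63.9% (median over 8 libraries, range 56.4 to 65.8%) of the prolyl 4-hydroxylase UMIs, P4ha2 30.7% and P4ha3 4.84%. Plod2 made up 59.5% (range 47.8 to 65.5%) of the lysyl hydroxylase UMIs, ahead of Plod1 with 22.3% and Plod3 with 18.4%. The leading prolyl 3-hydroxylase message differed between stages. P3h3 was the more abundant in eOBs (52.7% against 37.5% for P3h1), and P3h1 in mOBs (61.2% against 36.5% for P3h3). P3h2 was the rarest member of its family in mOBs, at 1.20 to 22.0 CPM, from 2 to 98 UMIs per library.

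**Figure D1:**
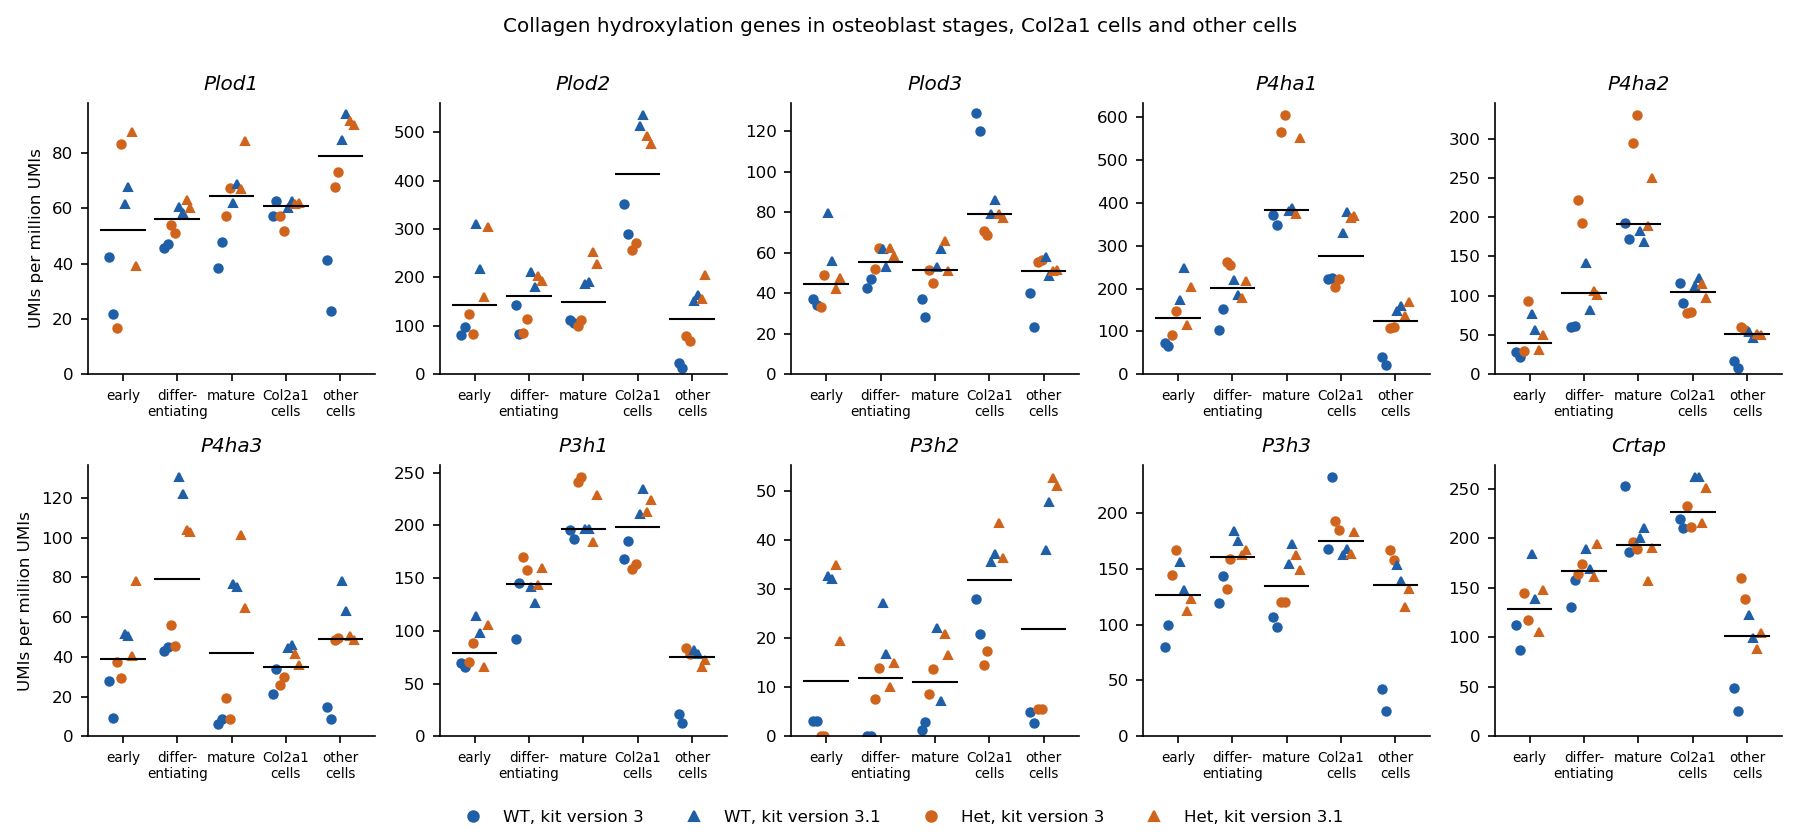
Level of each gene (CPM, linear axes from 0) in eOBs, dOBs, mOBs, Col2a1 cells and other cells. Each point is 1 library (blue WT, orange Het; circles kit version 3, triangles kit version 3.1), and bars are medians of the 8 libraries. The medians of P4ha1 and P4ha2 are highest in mOBs, at 384 and 191, and that of Plod2 in Col2a1 cells, at 414.

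The stages were compared to find which hydroxylases accompany the rise of collagen synthesis in maturing OBs. In mOBs, 8 of the 10 genes were higher than in eOBs by the quasi-likelihood test of edgeR with the library as a block, against 17.7% of the 11229 genes tested, and none was lower, against 18.1%. The prolyl 4-hydroxylases P4ha2 and P4ha1 rose most, by 6.22 and 4.46 times, and P3h1 and Crtap of the prolyl 3-hydroxylase complex by 3.33 and 2.12 times. For Plod1, Plod3, P3h3 and Plod2 the fitted folds were 1.51, 1.38, 1.51 and 1.34. These 4 calls depend on the scale, since none of them was made with plain library totals. With library totals that leave out collagen genes, P3h3 was still called, while Plod1, Plod2 and Plod3 were not. In CPM of the library total, Plod2 averaged 172 ± 94.9 in eOBs and 161 ± 60.6 in mOBs (SD, n = 8), and mOBs were above eOBs of the same library in 4 of 8 libraries for Plod2 and for P3h3. P4ha3 and P3h2 did not pass the test.

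P4ha2 measured 27.8, 21.8, 77.2 and 55.8 CPM in the WT libraries and 29.0, 93.1, 30.4 and 50.1 in the Het libraries in eOBs. In mOBs it measured 193, 172, 183 and 168 CPM in the WT libraries and 295, 329.7, 189 and 249.7 in the Het libraries. The lowest mOB library was above the highest eOB library, and the log2 difference was 2.64 (SE 0.21, adjusted p = 6.69e-09). P4ha1 measured 73.3, 65.4, 172 and 249 CPM in the WT libraries and 91.1, 147, 114 and 203 in the Het libraries in eOBs. In mOBs the same libraries had 371, 348, 381 and 387 CPM in the WT libraries and 567, 605, 375 and 551 in the Het libraries. The ranges of the stages again did not overlap, with a log2 difference of 2.16 (SE 0.19, adjusted p = 2.82e-08). In dOBs P4ha2 was already 2.49 times higher than in eOBs, with a log2 difference of 1.32 (SE 0.22, adjusted p = 0.000319), while P4ha1 in dOBs did not pass the test at 0.57 (SE 0.19, adjusted p = 0.0516). Whether the course of P4ha2 and P4ha1 differed was not tested.

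The P3h1 level was 65.3 to 114 in eOBs, 92.7 to 170.2 in dOBs and 184 to 246 in mOBs. No mOB library overlapped the range of the dOBs, and log2 differences from eOBs were 0.79 (SE 0.13, adjusted p = 0.000367) in dOBs and 1.74 (SE 0.13, adjusted p = 2.61e-09) in mOBs. Crtap, whose product binds that of P3h1, measured 87.2 to 184 in eOBs and 156 to 253 in mOBs, and its ranges overlapped. Its log2 differences from eOBs were 0.47 (SE 0.13, adjusted p = 0.0194) in dOBs and 1.08 (SE 0.13, adjusted p = 1.77e-06) in mOBs. The dOB value of Crtap lost the call without S2, S4, S6, S7 or S8, at 0.41, 0.44, 0.46, 0.39 and 0.46. P3h3 was higher by 0.43 (SE 0.10, adjusted p = 0.00368) on the log2 scale in dOBs and 0.60 (SE 0.10, adjusted p = 4.6e-05) in mOBs. P3h2 gave -0.33 (SE 0.35, adjusted p = 0.507) in mOBs, with no UMI in the eOBs of S3 and S4.

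Among lysyl hydroxylases, the Plod1 level was 16.6 to 87.6 in eOBs and 38.4 to 84.2 in mOBs, and that of Plod3 33.1 to 79.6 and 28.2 to 65.5. The ranges overlapped for both, and the log2 differences from eOBs to mOBs were 0.59 (SE 0.17, adjusted p = 0.00781) and 0.46 (SE 0.14, adjusted p = 0.011). Under 24 alternatives Plod1 kept its call in 20, Plod3 in 14 and Plod2 in 8, at values of 0.015 to 0.80 for Plod3 and -0.083 to 0.80 for Plod2. The call of Plod3 was lost in each kit version alone (0.55 and 0.40) and in WT libraries alone (0.25), among others. In dOBs no lysyl hydroxylase passed the test. Plod2 measured 81.0, 96.6, 311 and 217 CPM in the WT libraries and 124, 83.3, 160.1 and 304 in the Het libraries in eOBs. In mOBs it measured 113, 106, 187 and 189.6 CPM in the WT libraries and 99.2, 111, 252 and 227 in the Het libraries. Libraries of kit version 3.1 were higher than those of kit version 3 in both stages, and the log2 difference between stages was 0.42 (SE 0.15, adjusted p = 0.0321). This call was lost without S1, S2, S4 or S7, at 0.33, 0.40, 0.38 and 0.33. Without OBs that held Col2a1 above 1% of UMIs it was 0.80 (adjusted p = 0.000163). The next selection left out OBs with markers of any other listed cell type, which removed all 133 OBs of S2 and 210 of the 243 of S1, and gave -0.083 (adjusted p = 0.815). With the erythroid list not used, 65 OBs of S1 and 25 of S2 were removed and Plod2 was at 0.12 (adjusted p = 0.625). Within kit versions it was 0.75 in version 3 and 0.19 in version 3.1.

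In dOBs 5 genes were called higher than in eOBs, P4ha2, P4ha3, P3h1, Crtap and P3h3, against 7.2% of all genes, and none was lower, against 8.15%. P4ha1 was called without S6, at 0.73. The scale to which libraries are set bears on all stage values, since collagen takes a large share of the UMIs of mOBs. With plain library totals in place of TMM, the median of all genes moved from -0.031 to -0.48 and only 772 of 7130 called genes were higher in mOBs, against 1987 of 4019. With totals that leave out collagen genes it was 1164 of 5043, at a median of -0.26. For dOBs against eOBs the higher genes were 809 of 1724 with TMM, 484 of 1657 with plain totals, 603 of 1642 without collagen genes and 612 of 1668 with DESeq2 size factors. With plain totals P4ha2 (2.18), P4ha1 (1.69), P3h1 (1.27) and Crtap (0.61) were still called higher in mOBs, while Plod1 (0.15), Plod3 (0.015), P3h3 (0.13) and Plod2 (-0.041) were not.

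P4ha3 was highest at intermediate Col1a1. It measured 27.8, 9.34, 51.5 and 50.4 CPM in the WT libraries and 37.3, 29.4, 40.2 and 78.0 in the Het libraries in eOBs. In dOBs it measured 43.1, 44.9, 130.4 and 122 CPM in the WT libraries and 55.8, 45.7, 104 and 103 in the Het libraries, above the eOBs of the same library in 8 of 8 libraries, and the log2 difference was 1.19 (SE 0.26, adjusted p = 0.00351). In mOBs it measured 6.0, 8.68, 76.5 and 75.3 CPM in the WT libraries and 19.3, 8.75, 101 and 64.7 in the Het libraries. All 4 libraries of kit version 3 were under 20 CPM there and all 4 of version 3.1 above 60. The log2 difference of mOBs from eOBs was 0.50 (SE 0.27, adjusted p = 0.156), and it was called without S1, at 0.73, and in kit version 3.1 alone, at 1.02, against -0.88 in version 3 alone.

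Narrower classes of Col1a1 share, chosen after the levels were seen, were used to follow P4ha3 within mOBs. Its median over libraries was 38.7 in OBs with Col1a1 under 0.75% of UMIs, 77.4 from 0.75 to 1.5%, 79.2 from 1.5 to 3.5%, 86.6 from 3.5 to 6%, 16.9 from 6 to 10% and 4.32 above 10%. In OBs with Col1a1 above 10% it was 1.81 to 7.96, from 22 UMIs of 5759419 over the 8 libraries. In each of the 8 libraries the value above 10% was below that from 1.5 to 3.5%, which ranged over 42.5 to 137. Over the same classes, median P4ha1 went from 131 through 210.1 (1.5 to 3.5%) to 526 above 10%, and median P4ha2 from 40.3 through 117 to 208. In the cells with most Col1a1, P4ha3 was thus near its lowest level where the other α subunits were at their highest medians. These classes were given no test, and libraries S3, S7 and S8 held 10 to 15 cells above 10%.

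**Figure D2:**
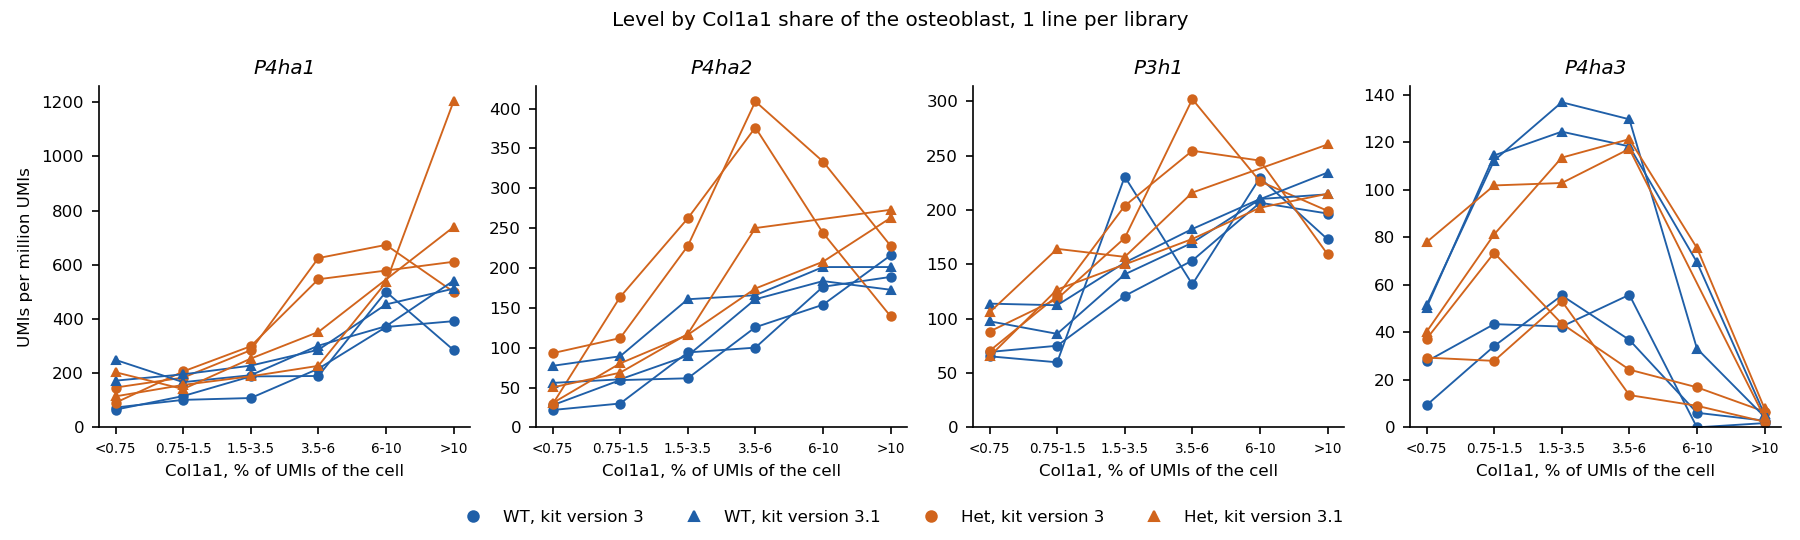
Level (CPM, linear axes from 0) of P4ha1, P4ha2, P3h1 and P4ha3 in OBs grouped by the share of Col1a1 in the UMIs of the cell, 1 line per library (blue WT, orange Het; circles kit version 3, triangles kit version 3.1). Groups with under 10 cells are left out. P4ha3 lies at 1.81 to 7.96 above 10% Col1a1, where P4ha1 lies at 285 to 1202.

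P4ha3 differed between libraries of the kit versions at lower Col1a1 as well. From 1.5 to 3.5% Col1a1 it was 42.5, 55.6, 43.7 and 53.2 in S1 to S4 and 137, 125, 114 and 103 in S5 to S8. Among 40 sums of 8 libraries and 5 classes, Pearson correlations of log2 levels between members reached 0.958 for P3h1 with Crtap, 0.948 for P4ha1 with P3h1 and 0.941 for P4ha1 with P4ha2. Those of P4ha3 with the other 9 were 0.0995 to 0.35. Sums of a library share its kit and its cell preparation, so these values describe the table and carry no p.

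Per cell, at an equal depth of 2000 UMIs, P4ha1 was detected in 48.8% of mOBs (median over libraries), 27.1% of dOBs and 27.4% of eOBs, against 9.94% of haematopoietic-like cells, the class used as background for free RNA. P4ha2 was detected in 28.8% of mOBs, 17.8% of dOBs and 6.48% of eOBs, against 1.29%. P4ha3 was detected in 6.81%, 12.6% and 9.35%, against 0.538%. Without thinning, P4ha1, P4ha2 and P4ha3 had a UMI in 93.5, 82.1 and 32.8% of mOBs and in 31.4, 4.79 and 2.61% of haematopoietic-like cells, at median depths of 15764 and 6200.0 UMIs.

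Most listed partners of the enzymes rose over the same stages. Of 12 partners 9 were higher in mOBs than in eOBs and none was lower, where 17.7% of all genes were higher and 18.1% lower, with a median log2 difference of 1.16, beside 0.59 for the 10 hydroxylase genes and -0.031 for all genes tested. Serpinh1, the collagen chaperone HSP47, rose by 1.57 (SE 0.14) on the log2 scale, Fkbp10, a prolyl isomerase that acts with lysyl hydroxylase 2, by 1.53 (SE 0.10), and P3h4, a partner of lysyl hydroxylase 1, by 1.41 (SE 0.15). P4hb, the β subunit of prolyl 4-hydroxylase, rose by 1.09 (SE 0.088), and Ppib, cyclophilin B, by 0.93 (SE 0.076). Of the genes that glycosylate hydroxylysine, Colgalt1 rose by 0.63 (SE 0.10) and Colgalt2 was lower, at -2.99 (SE 0.55). Col1a2 itself, 4.43 (SE 0.19), follows the Col1a1 share that defines the stages.

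Genes that supply the cofactors moved in both directions. The counts that follow stand beside 17.7% of all genes called higher in mOBs and 18.1% called lower. Of 5 tested genes of ascorbate, iron and zinc supply, Slc39a13, Slc39a14 and Slc11a2 were higher in mOBs, by 1.77 (SE 0.12), 0.84 (SE 0.16) and 0.86 (SE 0.21) on the log2 scale. The ascorbate transporter Slc23a2 and the transferrin receptor Tfrc were lower, at -0.98 (SE 0.20) and -2.02 (SE 0.35). Of other 2-oxoglutarate hydroxylases 1 of 5 was higher, near the share of all genes: Asph, at 0.41 (SE 0.11). Of 11 tested hypoxia targets 4 were higher, Higd1a, Pdk1, Pgk1 and Aldoa, and 1 was lower, the glucose transporter Slc2a1, at -1.74 (SE 0.29). The genes named in this paragraph were chosen after their values were seen. Among 11 collagen genes 7 were higher in mOBs and 3 lower. That list includes Col1a1, which set the stages, and Col1a2, which follows it, so part of this count follows from the selection.

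The genes most like the sum of the 10 hydroxylase genes over the 40 sums were P3h4 (Pearson correlation 0.970), Yipf5 (0.961), Rcn1 (0.956), Morf4l2 (0.956) and Pycr1 (0.940), among 6804 genes compared. The 10 genes together gave 115 ± 36.6 UMIs per 1000 UMIs of Col1a1 and Col1a2 in eOBs (SD, n = 8), 34.3 ± 3.23 in dOBs and 11.8 ± 3.70 in mOBs. Since the Col1a1 share set the stages, the order of these ratios follows in large part from the selection, and they were given no test.

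OBs were next compared with cells that make another collagen. Col2a1 cells had more Plod2, the telopeptide lysyl hydroxylase, and more P3h2, Plod3 and Crtap than OBs, and none of the 10 genes was lower. Of all 16099 genes tested, 26.8% were higher and 24.3% lower. Plod2 measured 352, 289, 512 and 535 CPM in the WT libraries and 256, 271, 493 and 476 in the Het libraries in Col2a1 cells. Its lowest value there, 256, was above the highest of any OB sum over stages, 218, and the log2 difference was 1.44 (SE 0.25, adjusted p = 9.44e-05). The other differences were 1.43 (SE 0.40, adjusted p = 0.00612) for P3h2, 0.85 (SE 0.15, adjusted p = 0.000158) for Plod3 and 0.45 (SE 0.18, adjusted p = 0.0404) for Crtap. The call of Crtap was lost without S5, S6, S7 or S8, at 0.42, 0.40, 0.39 and 0.39. P4ha3 and P3h3 were at -0.53 (SE 0.24, adjusted p = 0.074) and 0.47 (SE 0.22, adjusted p = 0.0866). Without S2 or S4 P4ha3 was called lower, at -0.72 and -0.64, and without S2 P3h3 was called higher, at 0.36.

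With library totals that leave out collagen genes, 3341 of 7997 called genes were higher in Col2a1 cells, against 4311 of 8222 with TMM. For P4ha1 the sign of the difference from OBs was not the same in both kit versions. Over all libraries the log2 difference of Col2a1 cells from OBs was -0.056 (SE 0.26), while it was -0.63 in version 3 (adjusted p = 0.182, not called) and 0.61 in version 3.1, the latter with an adjusted p of 4.75e-05. P4ha2 was below the mOBs of the same library in 8 of 8 libraries without overlap, at 78.3 to 123 in Col2a1 cells. P3h1 was at 158 to 234, which overlapped the mOBs. Plod2 made up 73.3% of the lysyl hydroxylase UMIs of Col2a1 cells.

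In other cells 6 of the 10 genes were lower than in OBs, against 18.7% of all genes, and none was higher, against 27.3%. Since the class is a mixture, fewer cells that make a message and less of it per cell cannot be told apart. Log2 differences were -2.18 (SE 0.28, adjusted p = 4.91e-06) for P4ha2, -1.82 (SE 0.27, adjusted p = 2.07e-05) for P4ha1 and -1.75 (SE 0.23, adjusted p = 7.55e-06) for P3h1. Crtap was at -1.15 (SE 0.18, adjusted p = 4.37e-05) and Plod2 at -0.97 (SE 0.25, adjusted p = 0.00354). P3h3 was at -0.57 (SE 0.22, adjusted p = 0.044) and lost the call without S1, S6 or S7, at -0.48, -0.61 and -0.60. P4ha3 was at -0.51 (SE 0.23, adjusted p = 0.0746) and was called lower without S4, at -0.70. With plain library totals 6117 of 7838 called genes were higher in other cells, against 4401 of 7414 with TMM, and the median of all genes was 0.23 against 0.070. The 5 genes other than P3h3 were called lower under both scalings.

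Groups named by at least 3 detected markers of a list show where in the other cells these messages lay. Plod1 was highest in endothelial-like cells, with a median of 177 CPM, above haematopoietic-like cells (65.0) in 8 of 8 libraries without overlap. It was 64.1% of the lysyl hydroxylase UMIs of endothelial-like cells, where Plod2 was 13.4%. Between the next classes in the order of Plod1, haematopoietic-like cells, mOBs, mural-like cells, Col2a1 cells, dOBs, eOBs and fibroblast-like cells, all neighbours overlapped.

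P3h2 was also highest in endothelial-like cells (median 63.3), above mural-like cells (37.2) in 8 of 8 libraries with overlapping ranges. P3h2 made up 48.6% (median) of the prolyl 3-hydroxylase UMIs there, from 19.3 to 76.1% over libraries, with levels of 12.8 to 132 CPM. P4ha3 was highest in fibroblast-like cells (median 82.6 in the 7 libraries with at least 10 such cells) and lay above the dOBs (79.2) of the same library in 7 of 7, with overlapping ranges. Of these libraries, S2, S5, S7 and S8 held only 12 to 18 fibroblast-like cells, so their values rest on few cells. P3h3 was highest in mural-like cells (median 196), followed by Col2a1 cells (175), and the ranges overlapped. Haematopoietic-like cells had medians of 13.1 for Plod2, 6.18 for P4ha2 and 14.1 for P3h1, below every other class.

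**Figure D3:**
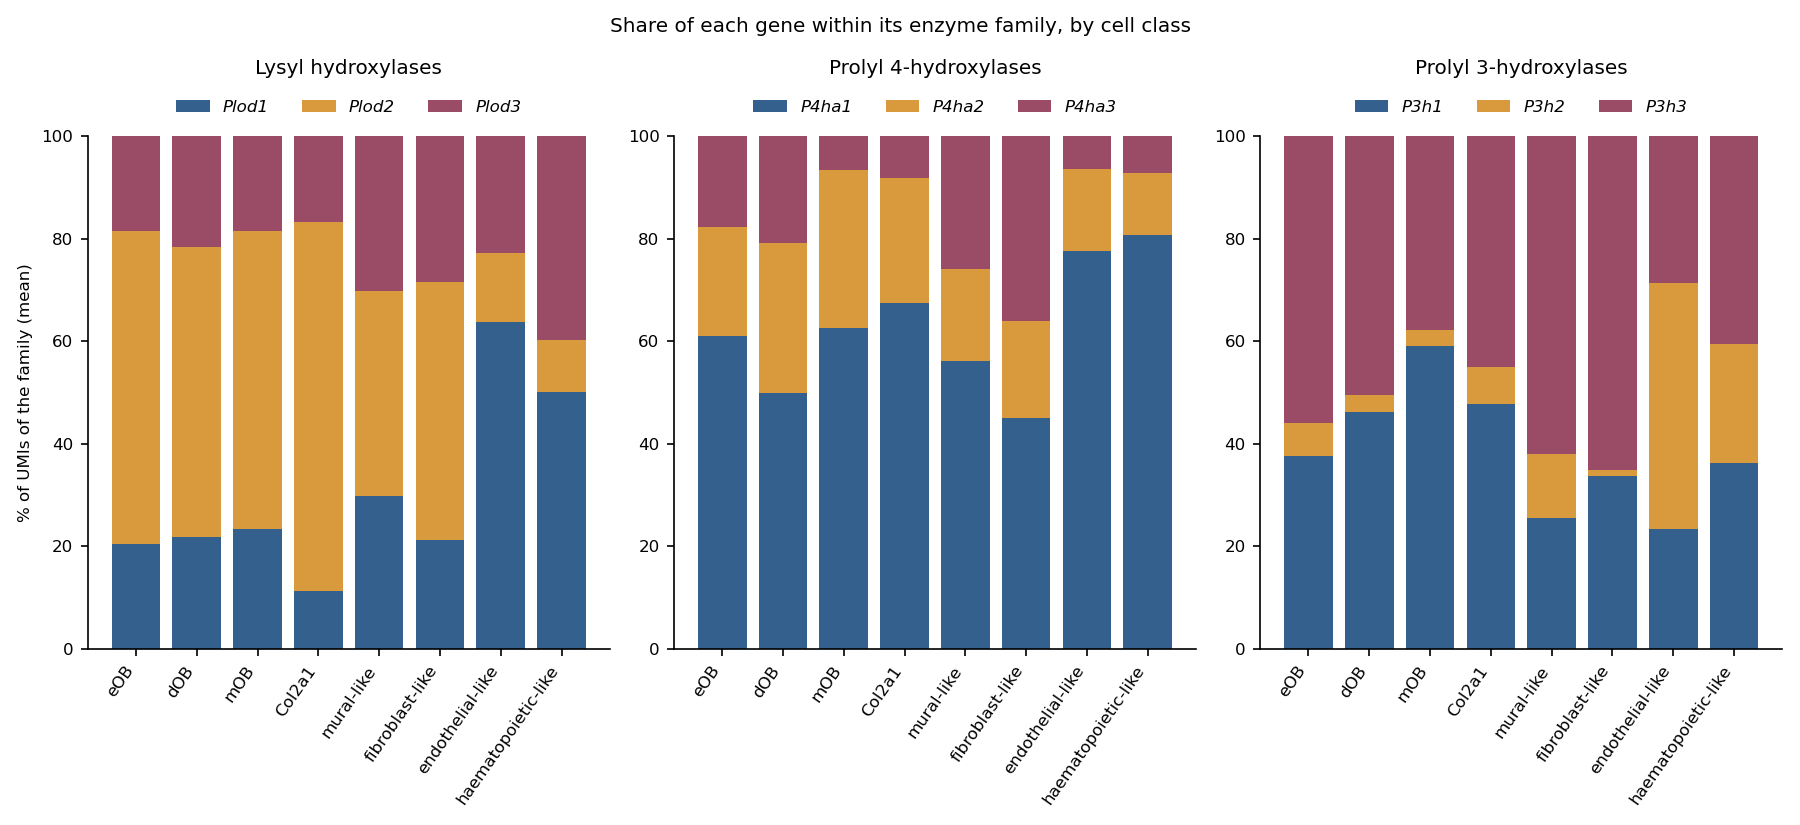
Share of each gene in the UMIs of its enzyme family (percent, mean over libraries, stacked to 100) in the OB stages, Col2a1 cells and named groups of other cells. Plod1 and P3h2 take their largest shares of their families in endothelial-like cells, with medians of 64.1% and 48.6%, and P4ha3 in fibroblast-like cells, with 38.8%. Fibroblast-like cells numbered 12 to 18 in S2, S5, S7 and S8.

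Het and WT libraries were compared to find how OBs that make mutant procollagen set these enzymes. None of the 10 genes was called in mOBs by edgeR, fitted with terms for genotype and kit version, where 52 of 10033 genes (0.518%) were. P4ha2, P4ha1 and Crtap were among 1104 genes with p under 0.05 before adjustment, while DESeq2 called 136 genes and none of the 10. Without a filter on low counts, P4ha2 (0.49, adjusted p = 0.0175) and P3h2 (0.88, adjusted p = 0.0259) were called. The libraries of the genotypes overlapped for all 10 genes, and for all but 2.57% of all genes. For 9 of the 10 genes the log2 difference was above 0, with a median over the 10 of 0.24, beside 0.011 for all genes tested.

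P4ha2 and P4ha1, α subunits of prolyl 4-hydroxylase, had the smallest p-values of the 10. P4ha2 in mOBs, given above library by library, averaged 179 ± 10.9 in WT and 266 ± 60.7 in Het libraries (SD, n = 4 each). The 2 Het libraries of kit version 3 and S8 were above every WT library, and S7 lay within the WT range. The log2 difference was 0.49 (SE 0.14, 95% interval 0.18 to 0.80, edgeR adjusted p = 0.178). P4ha1 averaged 372 ± 17.2 and 524 ± 102, with the same 3 Het libraries above the WT range and S7 within it. Its log2 difference was 0.43 (SE 0.15, 95% interval 0.10 to 0.77, edgeR adjusted p = 0.287). Without S7 both were called, at 0.63 (adjusted p = 0.0194) and 0.59 (adjusted p = 0.02).

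Within kit versions, P4ha2 was 0.72 higher on the log2 scale in Het libraries of version 3 (adjusted p = 0.0446) and 0.26 in version 3.1, and the difference between kits was 0.46 (SE 0.25, adjusted p = 0.57). P4ha1 was at 0.65 (adjusted p = 0.0991) and 0.22, with a difference of 0.43 (SE 0.27, adjusted p = 0.655). P3h2, from few UMIs, was at 2.48 (adjusted p = 0.135) and 0.35, and 0.88 over both kits (SE 0.45, adjusted p = 0.514). Those values come from 1 fit over all 8 libraries. A fit to the 4 libraries of kit version 3 alone called P4ha2 (0.69, adjusted p = 0.0181), P4ha1 (0.62, adjusted p = 0.0298) and P3h2 (2.44, adjusted p = 0.0243), so the 2 fits differ in the calls of P4ha1 and P3h2. A kit difference was called for none of the 10 genes in mOBs, where it was for 0.0861% of all genes.

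Osteoblasts of WT libraries S1 and S2 also differed from the other libraries in their own markers. The listed osteoblast markers made up 3.57 to 4.73% of the mOB UMIs in S1 and S2 and 1.27 to 2.05% elsewhere, and Col1a1 with Col1a2 made up 20.4 and 17.3% against 9.24 to 13.8%. Haematopoietic markers made up 0.0671 and 0.0488% of the mOB UMIs in S1 and S2, against 0.00015 to 0.0164% elsewhere. Erythroid markers made up 1.27% in S2, against 0.00271 to 0.262% in the other libraries. At a matched Col1a1 share of 3.5 to 6%, P4ha2 in kit version 3 was 126 and 100.04 in WT and 376 and 409 in Het libraries, and P4ha1 was 216 and 189.6 against 546 and 625. From 6 to 10% the same libraries had 154 and 176 against 244 and 334 for P4ha2 and 370.2 and 500.4 against 579 and 673 for P4ha1. Above 10%, P4ha2 was 216 and 189 against 139 and 228, and P4ha1 392 and 285 against 611 and 499.996. In kit version 3 the 2 WT and 2 Het libraries did not overlap for P4ha1 in any of the 3 classes, nor for P4ha2 up to 10%. A separation of 2 libraries from 2 is weak, and the classes reuse the same libraries. The share of all genes so separated was not counted.

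In kit version 3.1, P4ha2 from 3.5 to 6% was 166 and 161 in WT and 174 and 250.04 in Het libraries, and above 10% 201 and 173 against 263 and 273. P4ha1 was 286 and 301 against 227 and 352 from 3.5 to 6%, and 512 and 541 against 1202 and 739 above 10%. In this kit the genotypes overlapped for P4ha1 from 3.5 to 6% and not in the other 3 of these pairs. These too set 2 libraries against 2, with no share of all genes beside them. S8 has no value from 6 to 10%. No class was tested, and 10 to 15 cells stand behind the values above 10% in S3, S7 and S8. The part of these library features in the difference was not tested.

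Among the remaining genes in mOBs, Crtap was below the WT mean of the same kit in 4 of 4 Het libraries, at -0.28 on the log2 scale (SE 0.13, 95% interval -0.56 to -0.0061, adjusted p = 0.44). Its partner P3h1 was at 0.15 (95% interval -0.11 to 0.41) and P3h3 at 0.018 (-0.21 to 0.25). Plod1 was at 0.29 (-0.023 to 0.60), with 4 of 4 Het libraries above the WT mean of their kit. Plod2 and Plod3 were at 0.10 (-0.14 to 0.35) and 0.21 (-0.11 to 0.53), and P4ha3 was at 0.27 (-0.20 to 0.74). The intervals exclude a change of 2 times or more in Plod1, Plod2, Plod3, P4ha1, P4ha2, P4ha3, P3h1, P3h3 and Crtap, and not in P3h2. Of the listed partners, glycosylation and cofactor genes, other hydroxylases, hypoxia targets and collagens, edgeR called none of 44 in mOBs, where it called 0.518% of all genes, and none in the other Het against WT comparisons, where it called at most 0.103%. Before adjustment, 9 of the 44 had p under 0.05 in mOBs, and 2 to 18 in the other comparisons. DESeq2 called 1 of 44 in mOBs (Hspa5, at 0.48, adjusted p = 0.0441), against 1.36% of all genes, 10 of 49 in other cells, against 9.72%, and none in the rest. Col1a2, the mutated gene, was at -0.55 (SE 0.18) in mOBs, with an adjusted p of 0.259.

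**Figure D4:**
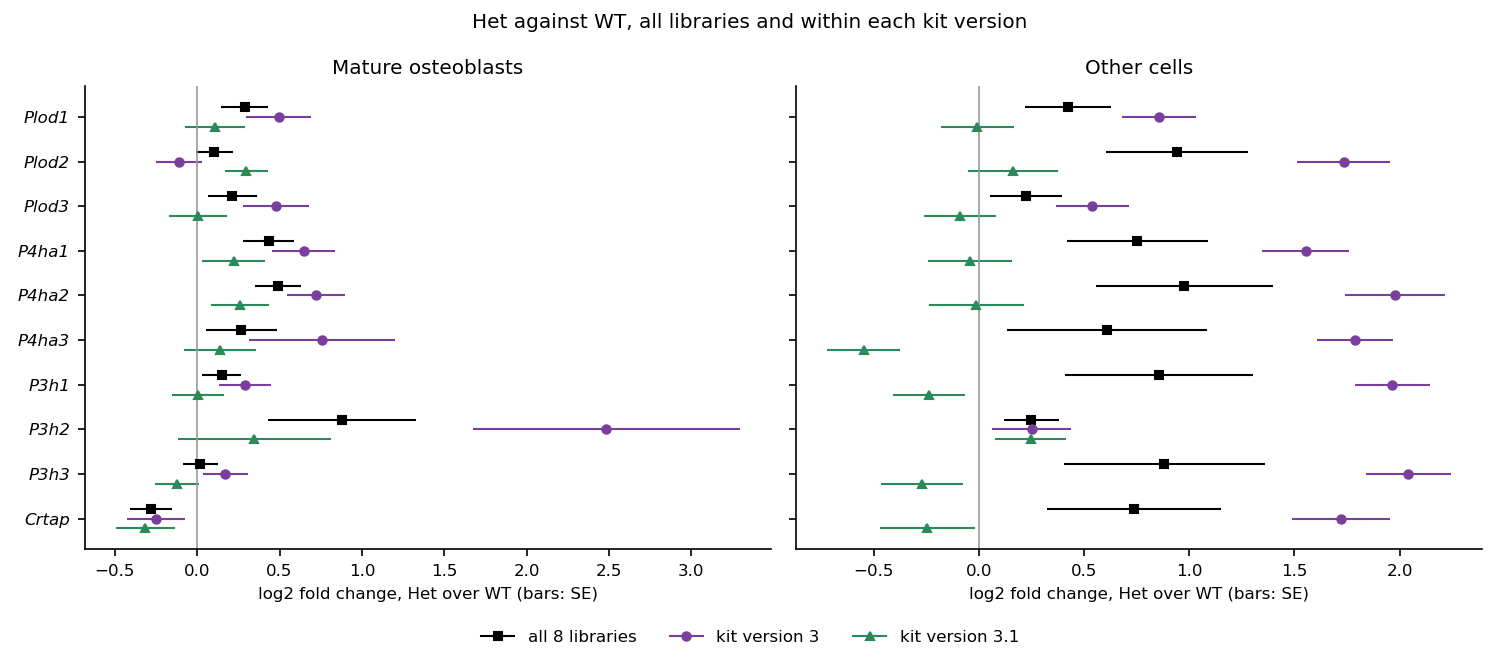
Log2 difference of Het from WT libraries for each gene in mOBs and in other cells, with SE, over all 8 libraries (black squares) and within kit versions 3 (purple circles) and 3.1 (green triangles). In other cells P4ha2 lies at 1.98 in version 3 and -0.013 in version 3.1, and in mOBs at 0.72 and 0.26.

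In dOBs none of the 10 genes was called, where edgeR called 1 of 10190 genes (0.00981%) and DESeq2 4. Before adjustment 751 genes, none of the 10 among them, had p under 0.05. The P4ha2 level was 60.2, 62.0, 142 and 82.1 CPM in the WT libraries and 222, 193, 105 and 101 in the Het libraries. Het libraries S3 and S4 were the 2 highest, while S7 and S8 lay between the WT libraries of their kit. The log2 difference was 0.66 over all libraries (SE 0.33, adjusted p = 0.67), 1.81 in kit version 3 (adjusted p = 0.0272) and -0.15 in version 3.1, and the difference between kits was 1.96 (SE 0.37, adjusted p = 0.069), a difference called for 0.151% of all genes. Osteoblast markers moved with these values, at 3.91 and 3.09% of the dOB UMIs in S1 and S2, 0.815 and 1.32% in S3 and S4 and 0.513 to 0.7497% in kit version 3.1, and their part in the difference was not tested. P4ha1 was at 0.44 (SE 0.22), 1.09 and -0.072 in the same order. P3h1 was above the WT mean of its kit in 4 of 4 Het libraries, at 0.31 (SE 0.16, adjusted p = 0.67).

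In eOBs none of 8732 genes was called by edgeR (0.0%) and 3 by DESeq2, with 338 at p under 0.05 before adjustment, none of the 10 among them. Standard errors of the 10 genes were 0.23 to 0.44 on the log2 scale there, from 22 to 95 cells per library, so small differences were not detectable at this depth. Whether the difference of Het from WT changed from dOBs to mOBs was tested as an interaction. It was called for 0 of 11187 genes by edgeR and 3 by DESeq2, with 504 at p under 0.05 before adjustment. The smallest p of the 10 was that of P3h2, 1.03 (SE 0.43, unadjusted p = 0.0349, adjusted p = 0.9999).

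In Col2a1 cells, whose marker is the main collagen of cartilage, none of the 10 genes was called, where edgeR called 15 of 14600 (0.103%) and DESeq2 53. Before adjustment 1024 genes had p under 0.05, Plod3, P4ha2 and Plod2 among them. Plod3 measured 129, 119.8, 79.2 and 86.0 CPM in the WT libraries and 70.6, 68.7, 78.9 and 77.1 in the Het libraries. It was the 1 gene of the 10 without overlap of the genotypes, which 1.45% of all genes were, and the log2 difference was -0.36 (SE 0.12, adjusted p = 0.546). S1 and S2 were far above the rest, and within kits it was -0.80 in version 3 (adjusted p = 0.00923) and -0.088 in version 3.1, with a difference of -0.72 (SE 0.12, adjusted p = 0.141), which was called for 0.0597% of all genes. S1 and S2 held 101 and 150 Col2a1 cells, against 760 to 6169 elsewhere. P4ha2 and Plod2 were at -0.23 (SE 0.087) and -0.18 (SE 0.073). The test of whether the genotypes differed more in OBs than in Col2a1 cells called 0 of 13849 genes by edgeR and 1 by DESeq2, with 685 at p under 0.05 before adjustment, and P4ha2 gave 0.82 (SE 0.46, adjusted p = 0.921).

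In other cells all 10 log2 differences were above 0, from 0.22 (Plod3) to 0.98 (P4ha2), and none was called. The share of all genes above 0 was not counted. Of 16374 genes edgeR called 0 (0.0%) and DESeq2 1592, none of the 10 among them, and 3823 had p under 0.05 before adjustment, Plod2 among them. The P4ha2 level was 16.5, 7.89, 53.7 and 46.3 CPM in the WT libraries and 60.4, 55.8, 51.1 and 50.2 in the Het libraries. S1 and S2 alone were low, and the other 6 libraries lay at 46.3 to 60.4. Within kits the difference was 1.98 in version 3 and -0.013 in version 3.1, a difference of 1.99 (SE 0.32, adjusted p = 0.00871). The difference between kits was called for 8 of the 10 genes, all but Plod3 and P3h2, against 20.6% of all genes. The haematopoietic-like share of other cells moved with these values, and with haematopoietic-like and erythroid-like cells left out the 10 values ran from 0.069 (Plod3) to 1.24 (P4ha2, adjusted p = 0.292) over all libraries. The part of that share in the difference was not tested.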

How the data were processed

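Matrices of UMI counts per gene and cell were deposited for 4 WT and 4 Het libraries. The authors aligned reads and counted UMIs with Cell Ranger (5.0.0 for S1 to S4 and 6.0.1 for S5 to S8, per the file headers; build mm10, per the labels) and deposited the counts without normalization. Symbols, coordinates and promoters were taken from the deposited gene lists, GENCODE M21 and RefSeq (GRCm38.p6). Counts were summed per library and class, leaving out sums of under 10 cells, and tested with edgeR 4.0.16 (filterByExpr, TMM, quasi-likelihood F test) in R 4.3.3, the model holding genotype and kit version, or with the library as a block for comparisons of classes. P-values were adjusted by Benjamini-Hochberg over all genes tested, and a gene was called at an adjusted p under 0.05. The fit was tested on simulated counts. Total counts of 30480239 to 85162035 UMIs per library over all deposited barcodes set the precision, and intervals cover these libraries only. No doublet caller was run. Members, gene lists and classes were chosen with earlier results of these data known. Genes named were the 10 members, 7 partners and the 5 genes most like their sum, with exceptions stated. Alternatives were DESeq2 1.42.0, other scalings, filters, selections and depths, and leaving out each library. Python 3.11.15 with pandas 2.3.3 read the matrices.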

Additional observations from a re-analysis of the deposited data

Results flagged for a closer look

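Of 100 groups of 4 libraries (10 genes, 5 classes, 2 genotypes), 2 had a library far from the other 3, where chance gives about 1 in 20. P3h1 in mOBs of WT library S2 was at 187 CPM (counts per 1000000 UMIs), with the other WT libraries at 196 to 197. P3h3 in Col2a1 cells of S2 was at 233, with the others at 162 to 168. The sum of S2 rests on 150 Col2a1 cells.

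The difference of Het from WT in other cells was larger in kit version 3 than in version 3.1, by a test of that difference, for 8 of the 10 genes, where 20.6% of all genes differed. On the log2 scale the excess was 2.34 for P4ha3, 2.31 for P3h3, 2.20 for P3h1, 1.99 for P4ha2, 1.97 for Crtap, 1.60 for P4ha1, 1.57 for Plod2 and 0.86 for Plod1. Libraries S1 and S2 are the WT libraries of kit version 3 and have the highest shares of haematopoietic-like cells, so kit and library cannot be told apart.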

How the results depend on the processing

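Numbers of the 10 genes called were recomputed under each alternative. Without a filter on low counts, 2 were called in Het against WT mOBs and 1 in dOBs. With kit version 3 alone, 3 were called in mOBs (P4ha1, P4ha2 and P3h2), 1 in dOBs and 8 in other cells, all higher, and 1 in Col2a1 cells, lower, against 0 of each over all libraries, and 3 of the 5 in dOBs against eOBs; with version 3.1 alone, 9 in Col2a1 cells against OBs (8 higher and P4ha3 lower, where 4 were higher over all libraries) and 10 in other cells against OBs (8 lower, Plod1 and P3h2 higher, where 6 were lower over all libraries). For mOBs against eOBs, the count of 8 became 5 with library totals without collagen genes (Plod1, Plod2 and Plod3 lost), 4 with plain library totals (P3h3 lost too) and 5 with cells thinned to 2000 UMIs (Plod2, Plod3 and P3h3 lost). For dOBs against eOBs, the count of 5 became 2 with thinned cells, 1 in WT libraries only, 2 without OBs with markers of other cells and 3 where the erythroid list was not used for that. The single-kit fits and the last of these were added after seeing the data. Leaving out 1 library gave 0 to 2 in Het against WT mOBs, 7 to 8 in mOBs and 4 to 5 in dOBs against eOBs, 3 to 6 in Col2a1 cells and 5 to 7 in other cells against OBs, and 0 to 0 in the other Het against WT comparisons and interactions. Among called values the direction turned for Plod2 in mOBs against eOBs, at -0.041 with plain totals and -0.083 without OBs with markers of other cells (which leaves no OB of S2), and for P4ha1 in Col2a1 cells against OBs, at 0.61 in kit version 3.1. Of 2342 values of single genes, 2212 kept their side of the threshold, 77 lost a call and 50 gained one, and 189 values without a call changed sign; the cause was not tested.

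The count of all genes called was less stable. In Het against WT comparisons, alternatives that moved it by over 1.5 times gave 0 to 536 in mOBs (52), 0 to 269 in dOBs (1), 1 to 258 in eOBs (0), 0 to 73 in Col2a1 cells (15) and 3 to 4850 in other cells (0). In mOBs and dOBs against eOBs they gave 1051 to 7130 (4019) and 237 to 2912 (1724), and in Col2a1 and other cells against OBs 3703 to 5066 (8222) and 4429 to 4585 (7414). Leaving out 1 library gave 11 to 193 in Het against WT mOBs. The titles number the libraries within a genotype. Same-numbered libraries showed little common deviation (correlations -0.14 to 0.15 over genes). With 2 libraries per genotype and kit version this check cannot exclude a pairing, and the main fits did not use the numbers. With the replicate block, 0 of the 10 genes were called in each Het against WT comparison, and 58, 0, 0, 14 and 3 genes in all. Early OBs numbered 22 to 95 cells per library.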
